A study of Mus musculus with 5 samples.

Results

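Lung B cells were all cells of the class B Cells in the deposited annotation. They numbered 2728 among 22118 annotated cells and 23852 cells in all, in 5 single-cell libraries of lungs seeded with 4T1, a mouse mammary carcinoma line. The class held 1 cell type, also called B Cells, and no plasma cell type was named. Lungs came from female BALB/c mice. From 6 weeks of age these had received 200 µL of tumor-secreted factors (TSF) or of control medium (CM) into the blood, 3 times per week for 3 weeks. TSF was medium kept on pieces of mammary tumors, and CM was the same medium without tumor. The labels name 4T1 or EMT6.5 as the source of TSF, and the study names 4T1 tumors for its single-cell sequencing. All mice, CM mice included, were then given 25000 4T1 cells that carried CD90.1, a variant of Thy1 used as a reporter. Lungs were taken 11 days later, at 10 weeks of age, or 16 days later, at 11 weeks of age.

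A single library stood for each group, except that libraries a and b were made for TSF at day 11. Each suspension pooled the lungs of 3 mice, so differences between mice were not measured and no test between groups was made. Shares are given with exact Clopper-Pearson intervals and ratios with exact conditional intervals, at the 95% level, and both cover counting error only. The methods refer to a dissociation in which lungs were perfused, which washes blood from the vessels, and name no sort of the cells, so B cells of the tissue and any left in its vessels were not separated. Libraries held 3835 to 5580 cells and 13240822 to 21451787 UMIs (unique molecular identifiers, which stand for RNA molecules). Pairs of libraries shared 0 to 2 barcodes among their B cells, 4 in all over 10 pairs.

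B cells make antibodies and present antigen to T cells. They sense antigen through the B cell receptor, a membrane antibody that signals through the paired chains CD79a and CD79b, and mature B cells also carry CD20, the product of Ms4a1. In the lung they circulate through the vessels and gather in lymphoid clusters around airways, which grow after infection and inflammation.

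The label could not be checked against levels of its markers in the B cells, because values of single genes in these cells were not used here. The deposited gene table marks Cd79a (chr7:24897381-24902197, plus strand), Cd79b (chr11:106311341-106314762, minus strand) and Ms4a1 (chr19:11249675-11266241, minus strand, all GRCm38) as members of the 1000 variable genes with which the authors clustered the cells. Of 25 listed B lineage genes, 21 were in that set, beside 4.21% of all 23771 genes. These comprised all 8 of the B cell receptor, among them Ighm, Ighd and Igkc, which encode antibody chains, and 7 of 8 other surface genes, with Cd22 outside. Of 9 genes of B cell transcription and signaling, 6 were in the set, among them Pax5, the factor that holds B cell identity, while Bach2, Blnk and Btk were not. Markers of other cell types were in the set too. All 3 were for T cells, natural killer (NK) cells, neutrophils and plasmacytoid dendritic cells, and 2 of 3 for macrophages and epithelium. Membership is set over the merged cells and does not show which cells express a gene.

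The first question was how many B cells the lungs held. At day 11 the share of B cells among annotated cells was 15.2% after CM (568 of 3738, interval 14.1 to 16.4%). It was 13.4% in TSF library a (685 of 5113, interval 12.5 to 14.4%) and 14.1% in TSF library b (678 of 4804, interval 13.1 to 15.1%). The 3 intervals of day 11 overlap. At day 16 the share was 12.1% after CM (430 of 3567, interval 11.0 to 13.2%) and 7.50% after TSF (367 of 4896, interval 6.77 to 8.27%), the lowest of the 5 libraries. Among 12 classes B cells ranked 3 by number in the CM libraries and in TSF library a, 2 in TSF library b, and 6 after TSF at day 16.

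At day 11 the mean TSF share was 0.905 times the CM share (interval 0.820 to 0.999). That interval came from the pooled counts of a and b, and the ratio was 0.882 with library a alone and 0.929 with library b alone. Libraries a and b differed from each other by less than counting error, at a ratio of 0.949 (interval 0.852 to 1.06). At day 16 the ratio of TSF to CM was 0.622 (interval 0.539 to 0.716), and this value depended on which other cells were counted. After TSF at day 16 granulocytes formed 29.1% of annotated cells, beside 4.47 to 6.00% elsewhere. Among immune cells the ratio was 0.502 (interval 0.436 to 0.579), without granulocytes 0.824 (interval 0.715 to 0.9499), and among B, T and NK cells 0.945 (interval 0.820 to 1.09).

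B cells were therefore set against other lymphocytes of the same library, a ratio that other classes do not change. At day 11 there were 0.993 B cells per T cell in the CM library (568 B and 572 T cells, interval 0.883 to 1.12). TSF libraries a and b held 0.940 (interval 0.845 to 1.04) and 1.02 (interval 0.916 to 1.14). At day 16 there were 0.655 B cells per T cell in the CM library (430 B and 656 T cells, interval 0.579 to 0.741) and 0.643 in the TSF library (367 B and 571 T cells, interval 0.562 to 0.734). Each library of day 16 lay below each library of day 11, with no overlap of intervals, and the CM and TSF libraries of a day overlapped.

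The TSF to CM ratio of B cells per T cell was 0.987 at day 11 (interval 0.856 to 1.13; 1.03 with library b alone) and 0.981 at day 16 (interval 0.817 to 1.18). The ratio of day 16 to day 11 was 0.660 after CM (interval 0.556 to 0.784) and 0.656 after TSF (interval 0.563 to 0.766). T cells, which include the cells the authors named DN T Cells, gave ratios on either side of 1 after the 2 media when taken as a share of annotated cells. From day 11 to day 16 their ratio was 1.20 after CM (interval 1.07 to 1.35) and 0.831 after TSF (interval 0.752 to 0.916), while that of B cells was 0.793 after CM (interval 0.698 to 0.901) and 0.545 after TSF (interval 0.485 to 0.612). Mice of day 16 were older by the days between the samplings, and age, day and library cannot be told apart.

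Against NK cells, the cytotoxic lymphocytes without antigen receptors, the order was another. There were 7.28 B cells per NK cell in the CM library of day 11 (interval 5.74 to 9.35), where NK cells numbered 78, and 3.85 and 3.53 in TSF libraries a and b. At day 16 there were 3.91 in the CM library (interval 3.16 to 4.86) and 2.58 in the TSF library (interval 2.12 to 3.16). The TSF to CM ratio was 0.507 at day 11 (interval 0.384 to 0.661) and 0.661 at day 16 (interval 0.492 to 0.888). NK cells alone had a TSF to CM ratio of shares of 1.79 at day 11 (interval 1.40 to 2.31) and 0.940 at day 16 (interval 0.728 to 1.22).

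**Figure D1:**
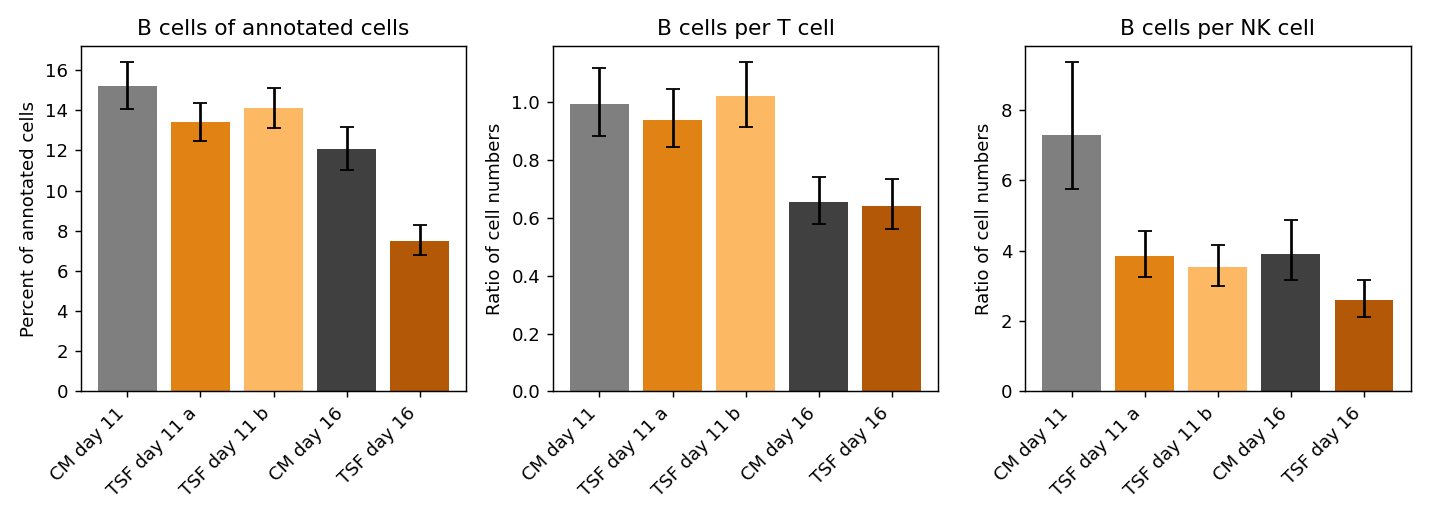
Percent of annotated cells that were B cells (left), B cells per T cell (middle) and B cells per NK cell (right) in the 5 libraries, with bars for the library and error bars for exact 95% intervals of counting error. The libraries of day 16 sit near 0.65 B cells per T cell and those of day 11 near 1, whichever medium was given.

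The second question was what the B cells were like as cells. B cells are small resting lymphocytes with little RNA, and they had the second lowest median UMIs of the 12 classes in 4 libraries and the lowest in the TSF library of day 16. The median was 1520 UMIs per B cell in the CM library of day 11 (quartiles 1261 and 1797). TSF libraries a and b had medians of 1332 and 1404.5 UMIs. At day 16 the median was 1864.5 UMIs in the CM library (quartiles 1554.5 and 2234.75) and 1543 in the TSF library (quartiles 1273 and 1855.5). B cells of CM lungs at day 16 thus had the most UMIs, and B cells of TSF lungs had fewer than those of CM lungs at each day.

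T cells of the same libraries had medians of 1954 UMIs after CM and 1753 and 1996.5 in TSF libraries a and b at day 11, so that library b lay above CM, and of 2568 after CM and 2038 after TSF at day 16. Set against the T cells of their own library, B cells had 0.703 to 0.778 times as many UMIs in all 5 libraries. Median genes per B cell were 710 after CM at day 11, with 652 in TSF library a and 671.5 in TSF library b. At day 16 they were 909 after CM and 739 after TSF. At matched depth, among B cells with at least 1200 and under 1600 UMIs, the medians were 680, 665, 658, 754.5 and 689 genes in the same order. B cells of CM lungs at day 16 (82 cells in that window) still had the most genes, and so had their T cells, with 703.5 genes beside 639 to 663 in the other libraries.

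Mitochondrial transcripts took a median of 2.58% of UMIs in B cells of CM lungs at day 11, and 2.53% and 2.66% in TSF libraries a and b. At day 16 they took 2.37% after CM and 3.12% after TSF, the lowest and the highest of the 5 libraries. T cells had medians of 2.23% after CM and 2.74% after TSF at day 16, and NK cells 1.32% and 1.83%, so the difference was not confined to B cells among these 3 classes. With a mitochondrial maximum of 5% the TSF to CM ratio of the B cell share at day 16 was 0.576 (interval 0.497 to 0.667), beside 0.622 for all cells. That of B cells per T cell was 0.926 (interval 0.767 to 1.12), beside 0.981. Whether the mitochondrial difference had a part in the B cell numbers was not tested.

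**Figure D2:**
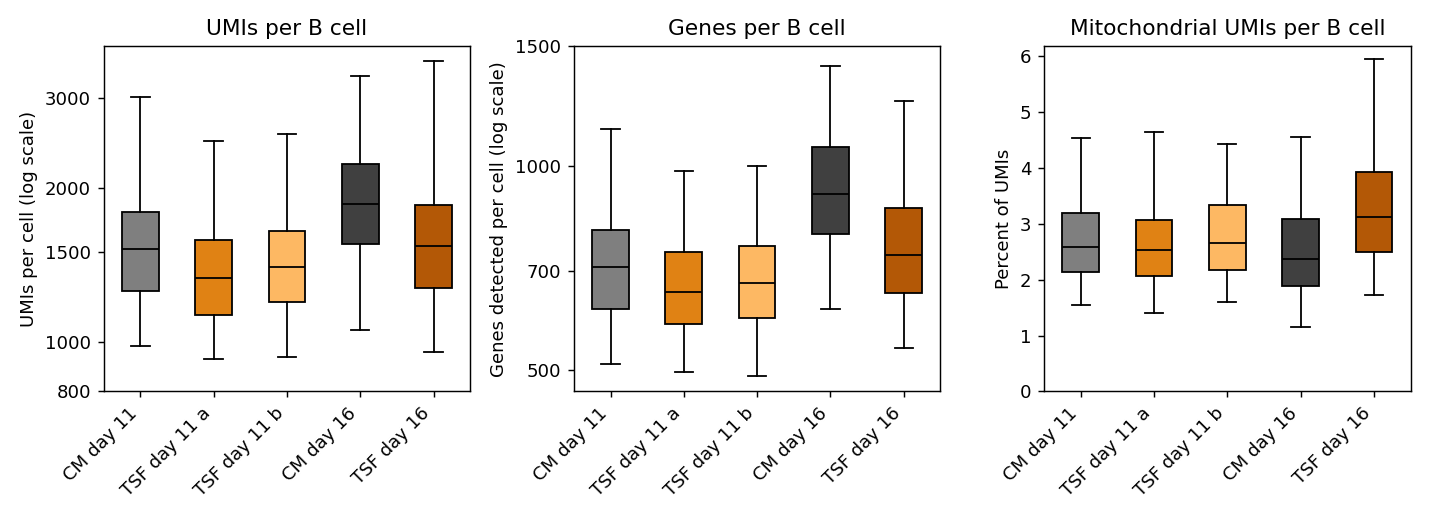
UMIs per B cell, genes detected per B cell (both on log scales) and percent of mitochondrial UMIs per B cell in the 5 libraries. Boxes span the quartiles with the median as a line, and whiskers run from the 5th to the 95th percentile of cells; the CM library of day 16 has the highest median UMIs (1864.5) and the TSF library of day 16 the highest mitochondrial median (3.12%).

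The depth bears on the counts, since the deposited cells had at least 800 UMIs and some B cells lay near that limit. Cells with under 1000 UMIs made up 6.16% of B cells in the CM library of day 11, 9.78% and 8.85% in the TSF libraries a and b, then 4.42% and 6.54% in the CM and TSF libraries of day 16. Only 8.76% to 43.0% of the B cells of a library had 2000 UMIs or more, with the highest share in the CM library of day 16. With that minimum the day 16 to day 11 ratio of B cells per T cell turned to 1.14 after CM (interval 0.847 to 1.54) and 1.12 after TSF (interval 0.800 to 1.55). The TSF to CM ratio was then 0.625 at day 11 (interval 0.457 to 0.854) and 0.611 at day 16 (interval 0.443 to 0.838). Both intervals lie below 1, unlike those of all cells. A minimum that followed the depth of each library was also used, from 800 to 1172 UMIs in proportion to the median of its T cells. It gave 0.644 and 0.652 for day 16 against day 11 after CM and TSF. For TSF against CM it gave 0.975 and 0.987 at day 11 and day 16. It lay below 2000 UMIs in every library, so it does not bear on the values at that minimum.

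**Figure D3:**
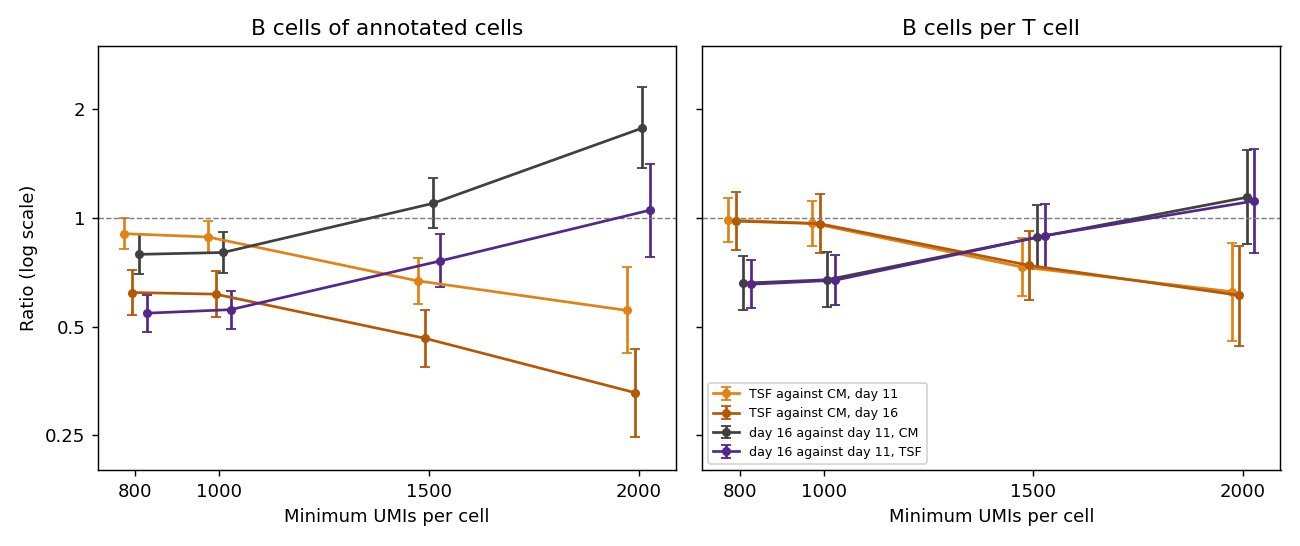
Ratios of the B cell share (left) and of B cells per T cell (right) against the minimum of UMIs that a cell had to pass, on a log scale, with exact 95% intervals; points are shifted sideways to keep them apart. Up to 1000 UMIs the values stay close to those of all cells, and at 2000 UMIs the ratios of day 16 to day 11 for B cells per T cell lie at 1.14 and 1.12. The ratios of TSF to CM for B cells per T cell then lie at 0.625 (day 11) and 0.611 (day 16).

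Of the clusters that a second clustering of the B cells gave, the one with the highest median held 119 cells, with medians of 3030 UMIs and 1191 genes. It took 4.93% of B cells in the CM library of day 11 (interval 3.30 to 7.05%), 4.82% and 3.54% in TSF libraries a and b, 3.26% in the CM library of day 16 (interval 1.79 to 5.40%) and 5.45% after TSF at day 16 (interval 3.36 to 8.29%). These intervals overlap. Cells with over 5000 UMIs numbered 9, 2, 3, 5 and 8 in the same order, and the highest had 33672 UMIs. That cell lay in cluster 143 of the first clustering, which held 8 B cells and 30 cells annotated as doublets. In all, 36 cells that clustered with the B cells, 3 to 11 in each library, are annotated as doublets. Counting them as B cells left the TSF to CM ratios of B cells per T cell at 0.990 and 0.979.

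The third question was how B cells differ among themselves. On the authors' map of all cells (UMAP, a projection that places cells of similar expression close together) B cells fell into 15 clusters, with a main body and a lobe at low x, which a thin strand of cells joined to it. The lobe was taken as the 4 clusters with a median x under 0.25, namely clusters 19, 36, 109 and 111. Cluster 109, at 0.231, was the last inside this limit and cluster 121, at 0.261, the first outside. The limit was chosen after the map was seen. The lobe held 697 of the 2728 B cells (25.5%). Which genes set it apart was not analysed here, and it is given no cell type name.

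The lobe held 22.7% of B cells in the CM library of day 11 (129 of 568, interval 19.3 to 26.4%). It held 42.2% in TSF library a (289 of 685, interval 38.5 to 46.0%) and 31.0% in TSF library b (210 of 678, interval 27.5 to 34.6%). At day 16 it held 8.84% in the CM library (38 of 430, interval 6.33 to 11.9%) and 8.45% in the TSF library (31 of 367, interval 5.81 to 11.8%). The libraries of day 16 lay below those of day 11, and the CM and TSF libraries of day 16 overlapped. Libraries a and b lay apart, at a ratio of 1.36 (interval 1.14 to 1.63), which shows how far 2 libraries of 1 group can differ in this measure beyond counting error.

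At day 11 the lobe's share of B cells was 1.61 times as large in TSF as in CM (interval 1.33 to 1.97), 1.86 with library a alone and 1.36 with library b alone. The step from CM to library b was thus as large as the step from library b to library a. The ratio of day 16 to day 11 was 0.389 after CM (interval 0.264 to 0.563) and 0.231 after TSF (interval 0.155 to 0.332).

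**Figure D4:**
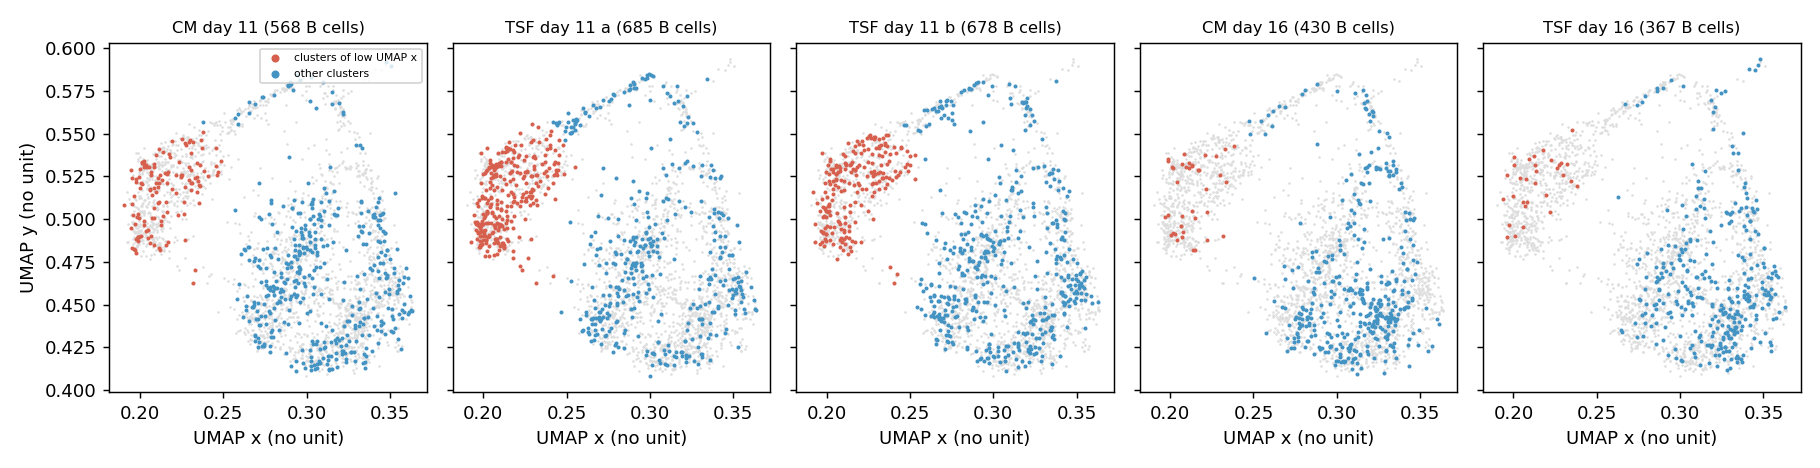
Position of the B cells on the authors' UMAP map (axes without unit) in each of the 5 libraries. Gray points are the B cells of all libraries, red points are B cells of the library in clusters 19, 36, 109 and 111, and blue points are its other B cells; the red lobe holds 42.2% of B cells in TSF library a of day 11 and under 9% at day 16.

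Set against T cells, the lobe and the other B cells gave different values. The lobe held 0.226 cells per T cell in the CM library of day 11, 0.396 and 0.316 in the TSF libraries a and b, then 0.0579 and 0.0543 in the CM and TSF libraries of day 16. The ratio of day 16 to day 11 was 0.257 after CM (interval 0.171 to 0.379) and 0.152 after TSF (interval 0.101 to 0.221). B cells outside the lobe numbered 0.767 per T cell in the CM library of day 11 (interval 0.676 to 0.871), 0.543 (interval 0.479 to 0.615) and 0.705 (interval 0.625 to 0.795) in the TSF libraries a and b, then 0.598 and 0.588 at day 16 after CM and TSF. Their ratio of day 16 to day 11 was 0.779 after CM (interval 0.650 to 0.933) and 0.943 after TSF (interval 0.806 to 1.12). With TSF library a alone the ratio after TSF was 0.137 for the lobe (interval 0.0900 to 0.203) and 1.08 for the other B cells (interval 0.899 to 1.30). With library b alone it was 0.172 for the lobe (interval 0.112 to 0.256) and 0.835 for the other B cells (interval 0.695 to 1.003). The lobe thus lay lower at day 16 against either library, while the other B cells lay on different sides of 1 against a and b.

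At day 11 the TSF to CM ratio per T cell was 1.58 for the lobe (interval 1.27 to 1.99) and 0.813 for the other B cells (interval 0.693 to 0.942). For the other B cells the ratio was 0.708 with library a alone (interval 0.592 to 0.846) and 0.918 with library b alone (interval 0.771 to 1.09), where the interval covers 1. Together the lobe and the other B cells make up the ratio of 0.987 given for all B cells.

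Cells of the lobe had fewer UMIs than the other B cells within each of the 5 libraries, with medians of 1249 to 1444 in the lobe and 1394 to 1928 outside it. Median genes were 618 to 775.5 in the lobe and 676.5 to 922.5 outside it. Mitochondrial medians were 3.10% in the lobe and 2.32% outside it after CM at day 16, and lay closer together in the other libraries. The part of depth and mitochondrial share in the lobe's size was not tested. Within a window of at least 1200 and under 1600 UMIs, the lobe held 23.4% in the CM library of day 11 (55 of 235 cells), 37.8% and 29.4% in TSF libraries a and b, 19.5% in the CM library of day 16 (16 of 82, interval 11.6 to 29.7%) and 11.8% after TSF at day 16 (16 of 136, interval 6.88 to 18.4%). At that depth the ratio of day 16 to day 11 was 0.834 after CM (interval 0.446 to 1.48) and 0.351 after TSF (interval 0.197 to 0.584), and the ratio of TSF to CM at day 11 was 1.43 (interval 1.06 to 1.97). From 1000 to under 1400 UMIs the ratio of day 16 to day 11 was 0.301 after CM (interval 0.106 to 0.692) and 0.301 after TSF (interval 0.160 to 0.508), and from 1400 to under 1800 UMIs it was 0.864 after CM (interval 0.463 to 1.56) and 0.223 after TSF (interval 0.101 to 0.443). The difference between days thus kept an interval below 1 in all 3 windows after TSF and in 1 of 3 after CM. In that window the CM library of day 16 had 6 lobe cells of 57. The windows overlap and share cells, so they are not independent of each other. The ratio of TSF to CM at day 11 was 1.22 in the lowest window (interval 0.931 to 1.65) and 1.83 in the highest (interval 1.24 to 2.67), so its interval covers 1 in the lowest.

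Of the 12 clusters with at least 100 B cells, cluster 19 of the lobe was the one with the widest gap between TSF libraries a and b, with 19.6% and 10.8% of B cells, beside 7.75% in the CM library of day 11 and 3.72% and 2.45% in the CM and TSF libraries of day 16. Cluster 8, in the main body, had the opposite order by day. It held 10.9% of B cells in the CM library of day 11, 5.40% and 9.14% in the TSF libraries a and b, then 21.4% and 24.8% in the CM and TSF libraries of day 16. Cluster 2 was largest in the CM library of day 11, with 22.2% of B cells, and held 13.9% in library a, 15.6% in library b, 9.30% and 12.8% at day 16 after CM and TSF. Cluster 102 parted the media at day 16, with 1.16% of B cells after CM (interval 0.379 to 2.69%) and 7.08% after TSF (interval 4.68 to 10.2%), and held 4.23% to 5.46% in the libraries of day 11. Cluster 105 had the reverse order at day 16, with 10.7% after CM (interval 7.94 to 14.01%) and 3.54% after TSF (interval 1.90 to 5.98%). These clusters were named after their values were seen, and cells can change cluster with any gene that differs between libraries.

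**Figure D5:**
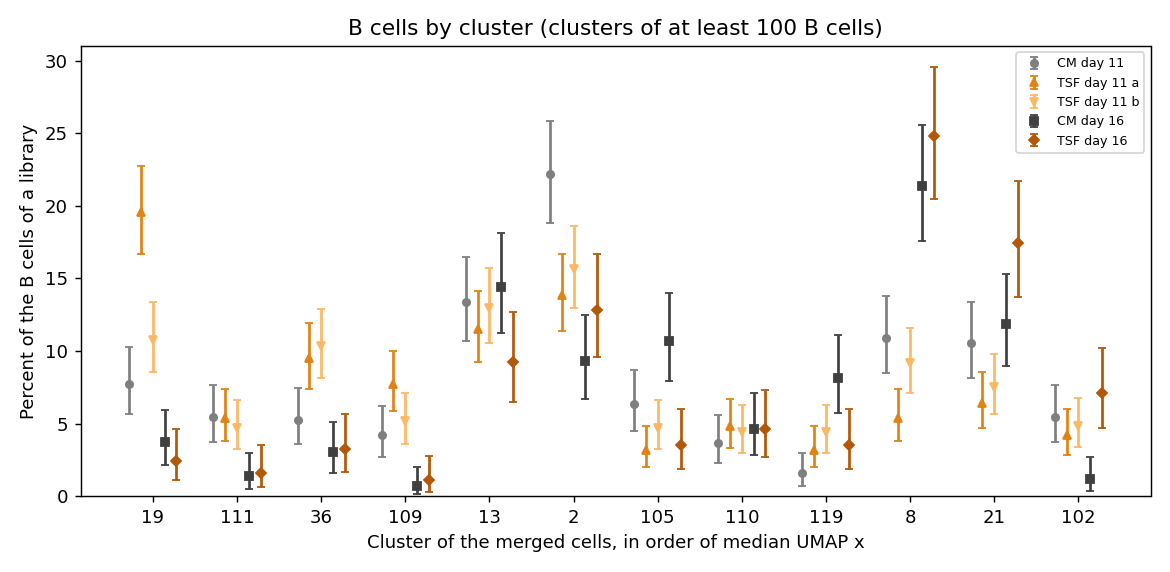
Percent of the B cells of each library that lay in each cluster of at least 100 B cells, with exact 95% intervals, in order of the clusters' median UMAP x. Clusters on the left (19, 111, 36 and 109) hold less of the B cells at day 16 than at day 11, and cluster 8 holds more (21.4% and 24.8%, beside 5.40% to 10.9%).

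To match the cluster makeup of TSF library b, 13.1% of the B cells of library a would have to lie in another cluster. The same measure was 31.4% between day 11 and day 16 after CM, 41.4% and 34.6% between TSF libraries a and b and the TSF library of day 16, and 20.4% between CM and TSF at day 16. T cells gave 11.5% between a and b, 26.8% between the CM libraries, 33.0% and 27.8% between the TSF libraries of the 2 days, and 24.97% between CM and TSF at day 16. Between the CM libraries of the 2 days, NK cells gave 24.8%, endothelial cells 24.9% and fibroblasts 22.6%. Differences by day in the cluster makeup were thus not confined to B cells or to lymphocytes. The measure also grows as cells get fewer, and no test of a difference between the classes was made.

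The cancer cells of day 16 were the one cell type with values for single genes, and they should lack B cell genes. Of the 25 listed B lineage genes, 13 (52.0%) had a UMI in any cancer cell of either group, beside 62.0% of all genes. Cd79a had a UMI in 1 of 139 cancer cells after TSF (interval 0.0182 to 3.94%) and in 1 of 29 after CM (interval 0.0873 to 17.8%). Cd79b was seen in 1 cell after TSF and Ms4a1 in 2, and both in no cell after CM. For 0 of 29 cells the exact interval reaches 11.9%, and a limit of 3 counts is 10.3%. Igkc, the constant part of the kappa antibody light chain and the member of the B cell receptor list seen most often, was in 6 cells after TSF (4.32%, interval 1.6003 to 9.16%) and 2 after CM (6.90%, interval 0.846 to 22.8%), and Ighm in 3 and 1. The highest shares over the B lineage lists were 6.47% after TSF, for Bach2, and 10.3% after CM, for Ebf1, both factors of B cell transcription. These cells had medians of 26615 UMIs after TSF and 27679 after CM, far more than B cells. The median number of cancer cells with a UMI was 1 over the B lineage genes, beside 3 over all genes. The counts follow the authors' subtraction of free RNA, for which they raised the automatic estimate of contamination. How many B cell transcripts that step removed was not measured.

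Of 5 plasma cell genes, Jchain, Mzb1 and Prdm1 had no UMI in any cancer cell, while Sdc1 and Xbp1, which epithelial cells express too, were in 77.0% and 72.7% of cells after TSF and 55.2% and 75.9% after CM. Among 5 receptors that guide or sustain B cells, Ccr7, Cxcr4 and Tnfrsf13c were seen in 3, 6 and 1 cells, and Cxcr5 and Tnfrsf13b in none. Beside the 62.0% of all genes, markers of other cell types with a UMI in any cancer cell were 2 of 3 for T cells, 1 of 3 for NK cells, 3 of 3 for neutrophils, 2 of 3 for macrophages, 1 of 3 for plasmacytoid dendritic cells and 3 of 3 for epithelium. The plasmacytoid dendritic cell marker seen, Bst2, was in 92.1% of cancer cells after TSF and 100% after CM. Among markers of T cells, NK cells, neutrophils and macrophages the highest share was 7.91%, for Cd68 after TSF. Mean levels had another order, in CP10k, a unit that scales the UMIs of each cell to a common total. After TSF they were 0.685 for the neutrophil gene S100a9, from 4 cells, and 0.300 for S100a8, from 2 cells, beside 0.0367 for Cd68. After CM both neutrophil genes were at 0.

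Of 9 secreted factors that act on B cells, 7 (77.8%) had a UMI in any cancer cell, beside 62.0% of all genes. Il7, which encodes a growth factor of B cell precursors and a survival factor of T cells, was in 16 of 139 cancer cells after TSF (11.5%, interval 6.72 to 18.02%) and in 11 of 29 after CM (37.9%, interval 20.7 to 57.7%). The ratio of these shares was 0.303 (interval 0.132 to 0.723), and the deposited mean levels were 0.0540 and 0.239 CP10k. Tnfsf13, which encodes APRIL, a survival factor of plasma cells, was in 16 cells after TSF (11.5%) and 1 cell after CM (3.45%), at a ratio of 3.34 whose interval of 0.519 to 140 covers 1. Tnfsf13b, which encodes BAFF, the survival factor of mature B cells, was in 3 cells after TSF and none after CM. Cxcl13, the chemokine that draws B cells into follicles, and Ccl19 were in no cancer cell. Tgfb1 was in 66.9% of cancer cells after TSF and 69.0% after CM, at a ratio of 0.970 (interval 0.594 to 1.66).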

How the data were processed

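Per the labels and the study's methods, 5' v1.1 10x Genomics libraries were mapped with Cell Ranger to mm10 (GRCm38.p6) plus the CD90.1 sequence and read with Seurat 4.1.0, free RNA was subtracted with a customised SoupX, and clusters were annotated by hand, after which a second clustering served to find multiplets, which the table keeps under labels of their own. The deposited cell table gives counts of UMIs and genes per cell after that correction, the percent of mitochondrial UMIs, cluster, class and UMAP position. Minima in the cells used were 800 UMIs and 202 genes, and mitochondrial UMIs reached 9.99%. For the cancer cells of day 16 a deposited table gives, per gene, counts and percent of the cells with a UMI, and the authors' mean CP10k, a signal scaled to a common total per cell and without replicate error. Its fold changes, p-values, q-values and ranking, and the authors' enrichment table, hold their own comparison and were not used. The table of cells also held 2 libraries outside the samples described, which were not used.

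Shares were taken of annotated cells, without doublets and unknown cells. TSF libraries a and b were averaged as 1 sample, as the methods pool the mice of a group, with intervals from pooled counts. Where no cell had a UMI, the limit is 3 counts of the total. Shares in cancer cells were not thinned to equal depth. Gene positions are from GENCODE M21 on GRCm38. Named genes were all members of 12 lists of B lineage, plasma cell, receptor, factor and cell type marker genes. Members, lists and tests were chosen with earlier results of these data known. Alternatives changed the denominator, the UMI minimum (1000, 1500 or 2000), the mitochondrial maximum (5%) and the libraries used. Values were computed with scipy 1.17.1, pandas 2.3.3 and numpy 2.4.6 under Python 3.11.15, and drawn with matplotlib 3.10.9.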

Additional observations from a re-analysis of the deposited data

Results flagged for a closer look

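In these measures both TSF libraries of day 11 lay on one side of CM and the TSF library of day 16 on the other side of its own CM library. The difference between days was not tested, since each group counts as 1 sample. Given as the log2 TSF to CM ratio of day 16 less the mean over a and b at day 11, it was -0.74 for the lobe's share of B cells, where day 16 alone had -0.07. By cluster it was -1.51 for cluster 19, 0.34 for cluster 111, 1.05 for cluster 2, -0.33 for cluster 110, -2.45 for cluster 119, 0.85 for cluster 8, 1.16 for cluster 21 and 2.87 for cluster 102. Shares of 1 library sum to 100%, so these 8 clusters are not independent of each other. The values for clusters 111 and 110 rest on steps as small as -0.01 and -0.01 (log2), within counting error. At day 16 the CM and TSF intervals also overlapped for the lobe and for clusters 19, 2, 119, 8 and 21. For cluster 102 the CM and TSF intervals of day 11 overlapped.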

How the results depend on the processing

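Among recomputed values of the comparisons of B cell numbers, map position and B lineage RNA, 75 kept their side of 1 within the counting interval of the reported value, 4 crossed 1 within an interval that covers it (1.02 to 1.22), 23 moved further and 5 reversed. At a minimum of 1500 UMIs the TSF to CM ratio of the B cell share was 0.464 at day 16 and 0.670 at day 11. That of B cells per T cell was 0.739 (interval 0.592 to 0.922) and 0.732 (interval 0.608 to 0.882). At 2000 UMIs these were 0.328, 0.554, 0.611 and 0.625, and B cells per NK cell had a TSF to CM ratio of 0.383 at day 11. For day 16 against day 11, the share ratio after CM turned to 1.098 at 1500 and 1.78 at 2000 UMIs, and after TSF it was 0.761 and turned to 1.05. B cells per T cell gave 0.884 after CM and 0.893 after TSF at 1500 UMIs, and turned to 1.14 and 1.12 at 2000 UMIs. A minimum scaled with T cell depth, chosen after seeing the data, reversed none of these. It ran only from 800 to 1172 UMIs, below the minima at which values turned, so it does not bear on those reversals. The part of depth in them was not tested.

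Denominators moved the share ratio of TSF to CM at day 16 to 0.502 (immune cells), 0.824 (without granulocytes) and 0.945 (lymphocytes), and that of day 16 to day 11 after TSF to 0.429, 0.732 and 0.779. In UMI windows, also chosen after seeing the data, the lobe's ratio of day 16 to day 11 moved to 0.834 (from 1200) and 0.864 (from 1400) after CM and to 0.351 (from 1200) after TSF, and that of TSF to CM to 1.22 at day 11 (from 1000) and 0.473 at day 16 (from 1400); the lowest window left the CM ratio at 0.301. Above 2000 UMIs the TSF to CM ratios of median UMIs reversed to 1.15 at day 16 and 1.06 at day 11, and those of median genes to 1.00 and 1.06, where only the deepest cells are left.

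With TSF library a or b alone, the share ratio of day 11 ranged from 0.882 to 0.929, that of day 16 to day 11 from 0.531 to 0.560, B cells per T cell of TSF against CM from 0.946 to 1.03, of day 16 against day 11 from 0.629 to 0.684, and B cells per NK cell at day 11 from 0.485 to 0.528. No paired analysis was possible because only TSF at day 11 had more than 1 library. Counting error limits the cancer cell values after CM most, with 29 cells.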
